A study of Mus musculus with 7 samples.

Results

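Which dendritic cell a progenitor becomes is set by a small group of transcription factors that act on one another's genes. The 10 examined here, Irf8, Irf4, Batf, Batf2, Batf3, Id2, Nfil3, Zbtb46, Bcl6 and Zeb2, were taken by symbol for these roles, and each was found as 1 of the 25428 probe sets of the array, which were built for 1 gene each. Expression was measured on 7 Affymetrix Mouse Gene 2.0 ST arrays of conventional type 1 dendritic cells (cDC1) sorted from mouse lung, 4 of control mice (nLung) and 3 of mice with late KP tumors, written KP(l). The comparison of KP(l) with nLung asks whether the factors that make and keep a cDC1 stand at other mRNA levels in a lung that carries a tumor.

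All mice were of the C57/BL6 strain, and their ages are not given in the sources used here. KP(l) mice had received 100000 cells of the KP line, a lung adenocarcinoma line, through the tail vein, and the labels give day 28 for the harvest. The tumors grow from injected cells and do not arise in place, which limits them as a model of a primary tumor. nLung mice are labelled as healthy controls and, by the methods of the study, were given PBS. Each array held RNA from a pool of the lungs of 2 to 3 mice, after enrichment on CD11c beads and sorting with antibodies to CD103, CD11b, CD11c, MHC class II and SiglecF. A p-value here measures the spread between these pools, and the number of arrays limits the precision. In sorted bulk RNA, fewer cells that express a gene and less of its RNA per cell cannot be told apart.

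IRF8 and BATF3 bind DNA together at composite elements and hold cells in the cDC1 fate, NFIL3 and ID2 act earlier in the mouse progenitor, and BCL6 is a repressor on which cDC1 also depend. IRF4 serves the cDC2, the other classical lineage, while ZEB2 represses Id2 and favors plasmacytoid dendritic cells, cDC2 and monocytes over cDC1. ZBTB46 marks both classical lineages. BATF and BATF2 are close relatives of BATF3 which, in mice, can take its place in cDC1 development when inflammatory cytokines are present.

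Levels are given on the linear scale, as 2 raised to the RMA value, and a linear level is set only against the same probe set on other arrays, because brightness also depends on the probes. Array medians ran from 3.49 to 3.57 on the log2 scale. Over all probe sets, which are no replicates of one another, arrays of the same group correlated with a Pearson's r of 0.947 to 0.978 (9 pairs) and arrays of different groups with one of 0.942 to 0.976 (12 pairs). The labels give no batch. By replicate number the arrays were placed in 2 sets, each with arrays of both groups. The first was made of replicates 1 and 2 of both groups, with upper quartiles of 5.11 to 5.17 on the log2 scale. The second was made of nLung replicates 3 and 4 with KP(l) replicate 3, its only KP(l) array, with upper quartiles of 5.22 to 5.28. These ranges did not overlap but lay close together. Differences are also given within each set as a check, although what the sets stand for is not known. The summed linear expression of 14 cDC1 markers was 10304 to 13349 in nLung and 9356 to 13249 in KP(l), and the ranges overlapped. At an unadjusted p under 0.05 in limma, 1 of the 14 was higher in KP(l), Itgae, and 2 were lower, Cd207 and Clec9a. Their log2 differences, KP(l) minus nLung, were 0.36, -1.77 and -0.33, each with an adjusted p of 0.912. The groups did not overlap for Itgae and Cd207. The 10 cDC2 markers summed to 2281 to 2552 in nLung and to 2022 to 2381 in KP(l), most of it from Ccr2, and the ranges overlapped. At an unadjusted p under 0.05 in limma, 2 of the 10 were higher in KP(l), Mgl2 and Clec10a, and 1 was lower, Cd209a. Their log2 differences were 1.38, 1.31 and -2.22, with adjusted p of 0.912, 0.912 and 0.752, and the groups of each did not overlap. Alveolar macrophage markers (10 measured of 11) summed to 228 to 1607 in nLung and to 415 to 2460 in KP(l), with KP(l) replicates 1 and 2 above all nLung arrays. KP(l) replicate 1 stood apart for neutrophil markers, which summed to 1547 there against 46.3 to 65.6 in nLung, most of it from S100a8 and S100a9, at 834 and 655. The same array also stood apart for Cd8b1, a T cell marker, at 218 against 11.1 to 17.5 in nLung. Of the other T and NK cell markers, Cd3e (7.69), Nkg7 (23.7) and Gzma (13.3) there were above every nLung array. The highest nLung arrays of these read 6.68, 17.9 and 9.71. Cd3d (8.73), Cd3g (4.33), Klrb1c (19.9) and Ncr1 (12.7) there were not above the nLung arrays.

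No factor passed the test across all genes. The calling rule, with the thresholds of the study, asked for a fold of at least 2 together with a Benjamini-Hochberg adjusted p no higher than 0.05 in limma. By this rule 0 of the 10 factors were called, against 0% of all probe sets. SAM, the test of the study, was rewritten here with all 35 label orders and also called 0. Its lowest false discovery rate (FDR) was 0.152. The paper, with its own run of SAM at these thresholds, did report differentially expressed transcripts between the groups. The cause of this disagreement was not tested. At an unadjusted p under 0.05, 1 of the 10 was higher in KP(l), Batf, where 2.62% of all probe sets were higher, and 1 was lower, Irf4, where 2.24% of all probe sets were lower. The same genes were those whose groups did not overlap. Batf was the 1 factor with every KP(l) array above every nLung array, a pattern of 2.12% of all probe sets, and Irf4 the 1 factor with every KP(l) array below, a pattern of 1.72%. Of the 10 log2 differences 4 lay above 0 and 6 below, with a median of -0.04 beside 0.02 for all probe sets.

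**Figure D1:**
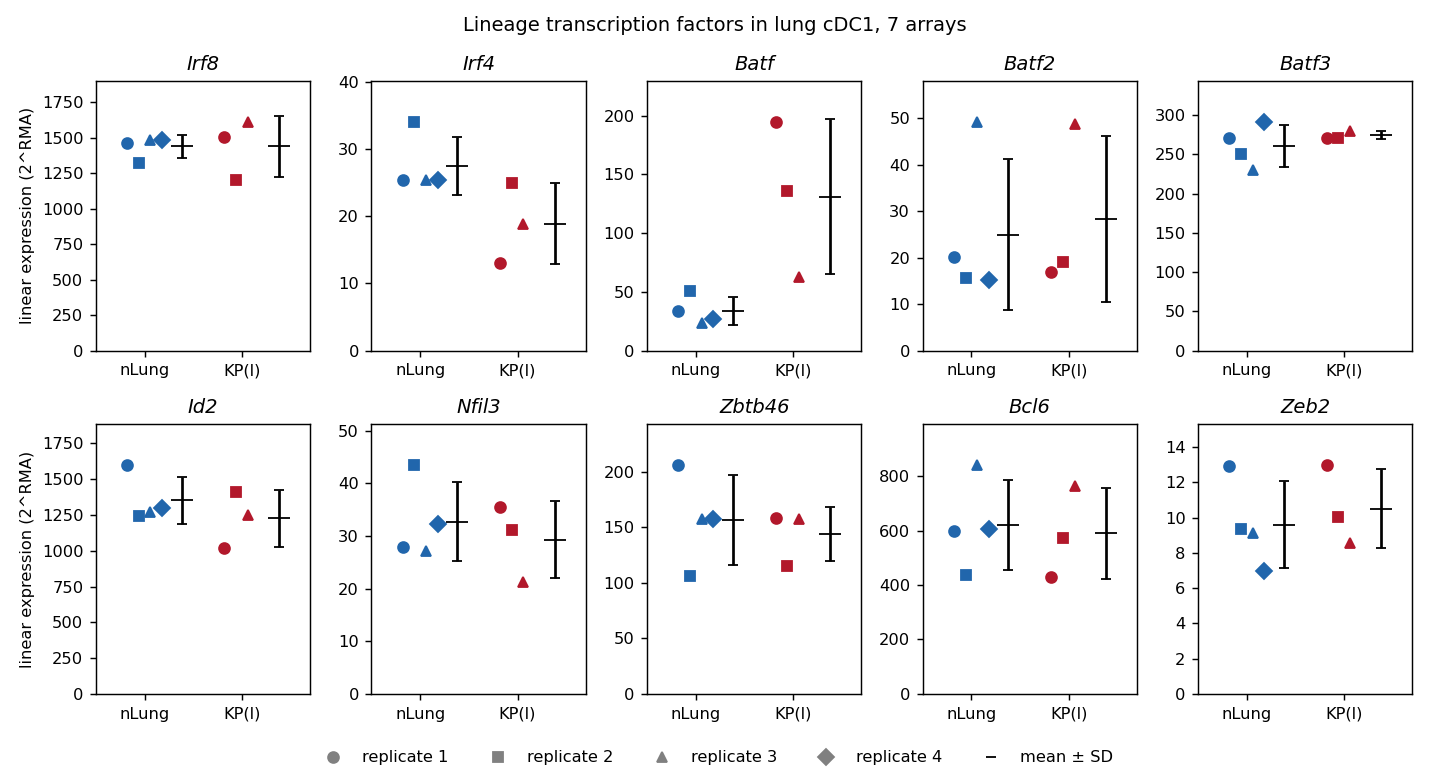
Linear expression (2 raised to the RMA value) of each of the 10 factors on the 7 arrays, 1 panel per gene, with nLung and KP(l) replicates as points and the group mean as a line. In the Batf panel the 3 KP(l) arrays lie between 62.9 and 194, all above the 4 nLung arrays at 23.6 to 50.9, whereas the groups of 8 other factors overlap.

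Irf8, the factor that fixes cDC1 identity and also acts in monocyte progenitors, overlapped between the groups. Its linear expression was 1467, 1322, 1486 and 1488 in nLung replicates 1 to 4 and 1507, 1202 and 1611 in KP(l) replicates 1 to 3. KP(l) thus held both the lowest and the highest array, and the nLung values lay between them. The log2 difference, KP(l) minus nLung, was -0.01, and the 95% confidence interval of the fold ran from 0.811 to 1.22, with an adjusted p of 0.997 (limma, Benjamini-Hochberg). Irf8 lies at chr8:120736358-120756694 (GRCm38.p6), and the promoter window that reaches from 250 bases before its start to 50 after it is printed because it holds STAT elements, the letters TTCNNNGAA, which appear in capitals. STAT proteins carry cytokine signals to the nucleus.
Irf8 promoter, chr8:120736108-120736407, plus strand: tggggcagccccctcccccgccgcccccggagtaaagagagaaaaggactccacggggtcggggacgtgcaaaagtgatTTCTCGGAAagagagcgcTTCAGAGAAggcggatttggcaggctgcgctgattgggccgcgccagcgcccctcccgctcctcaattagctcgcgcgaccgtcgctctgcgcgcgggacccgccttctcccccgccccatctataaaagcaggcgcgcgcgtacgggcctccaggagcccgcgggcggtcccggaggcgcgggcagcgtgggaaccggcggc
The first element began 171 bases and the second 153 bases before the start. Such an element was found in 6 of the 14 RefSeq windows of 9 factors, which fall to 4 factors, and in 8.3% of all 32851 promoter windows. Among the 6 are overlapping windows of Zeb2 that hold the same match, which is thus counted more than once. A match is a description of letters only.

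Batf3, which encodes the partner of IRF8 and on which this lineage depends, stayed within a narrow range. The linear values were 271, 250, 230 and 291 in the nLung arrays and 271, 271 and 280 in the KP(l) arrays. All KP(l) arrays lay inside the nLung range. This gave a log2 difference of 0.08, and the interval of the fold was 0.892 to 1.25. Among the 7 arrays, nLung replicate 1 and KP(l) replicates 1 and 2 held 1 identical value, as happens in the deposited table for 3 or more arrays in 30.6% of probe sets, so the spread of Batf3 is partly set by such ties.

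Id2 encodes a protein that binds E proteins such as TCF4 and keeps them from DNA, which bars the plasmacytoid fate. Its linear expression was 1596, 1243, 1273 and 1297 in nLung and 1016, 1410 and 1251 in KP(l). nLung replicate 1 was the highest array and KP(l) replicate 1 the lowest, and the others were mixed. KP(l) minus nLung was -0.15 on the log2 scale, with an interval of the fold of 0.706 to 1.15. Nfil3, which acts upstream of Id2 in the mouse progenitor and represses Zeb2, read 27.9, 43.4, 27.1 and 32.4 in nLung and 35.5, 31.2 and 21.3 in KP(l) on the linear scale. Here KP(l) replicate 3 was the lowest array and the groups overlapped. The log2 difference of Nfil3 was -0.16, and its fold could lie between 0.604 and 1.32.

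Bcl6 varied more between replicates than between groups. On the linear scale it read 599, 435, 839 and 605 in nLung and 430, 573 and 765 in KP(l). Replicate 3 was the highest array of both groups. The log2 difference was -0.07, and the interval of the fold, 0.605 to 1.49, was wider than that of Irf8, Batf3 or Id2. The gene has several RefSeq starts on the minus strand of chromosome 16. Of the windows with STAT elements, that of an inner start is printed because it held 3, the most of any window of these factors, at 168, 122 and 88 bases before the start.
Bcl6 promoter, chr16:23981234-23981533, minus strand: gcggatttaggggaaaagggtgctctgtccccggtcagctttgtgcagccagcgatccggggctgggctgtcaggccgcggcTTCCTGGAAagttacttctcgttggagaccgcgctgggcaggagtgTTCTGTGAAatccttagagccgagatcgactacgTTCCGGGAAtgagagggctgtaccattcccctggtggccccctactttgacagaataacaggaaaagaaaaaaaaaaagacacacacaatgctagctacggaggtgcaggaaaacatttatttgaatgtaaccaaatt
Batf3 and Zeb2 were the other factors with a STAT element, while the IRF element GAAANNGAA was in 0 of the 14 windows of the 9 factors and in 8.56% of all windows.

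Zbtb46, a zinc finger factor that separates classical dendritic cells from monocytes and macrophages, read 206, 106, 157 and 157 in nLung and 158, 115 and 157 in KP(l) on the linear scale. The second replicate was the lowest of either group, and nLung replicates 3 and 4 and KP(l) replicate 3 held 1 identical value. The log2 difference was -0.10, with an interval of the fold of 0.628 to 1.38. Zeb2 was dim throughout, at 12.9, 9.37, 9.15 and 6.96 in nLung and 13.0, 10.02 and 8.53 in KP(l). The first replicate was the highest of either group. The log2 difference of Zeb2 was 0.14 and the interval of the fold 0.747 to 1.63.

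Irf4 was lower on every KP(l) array. Its linear expression was 25.4, 34.0, 25.4 and 25.4 in nLung and 13.0, 24.9 and 18.8 in KP(l). These levels were low. On the log2 scale the means were 4.77 in nLung and 4.19 in KP(l), where array medians ran from 3.49 to 3.57. All KP(l) arrays lay below all nLung arrays, but KP(l) replicate 2, at 24.9, missed the lowest nLung arrays by little, and the gap rested on replicates 1 and 3. The means were 27.5 ± 4.30 (SD, n = 4 arrays) and 18.9 ± 5.96 (SD, n = 3 arrays), the log2 difference was -0.58, and the interval of the fold was 0.453 to 0.988 with an unadjusted p of 0.0450 and an adjusted p of 0.912 from limma with Benjamini-Hochberg adjustment. An exact two-sided permutation test gave 0.0286, the smallest p that 4 against 3 arrays allow. The log2 difference was -0.71 in the first set of arrays and -0.43 in the second. Without KP(l) replicate 1 it was -0.33, with an unadjusted p of 0.129, and the call at an unadjusted p under 0.05 held in 6 of 15 alternative fits. The part of cDC2 in the difference of Irf4 was not tested. Irf4 lies at chr13:30749233-30766981.

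Batf showed the widest difference of the 10. BATF is an AP-1 protein without a transactivation domain that pairs with JUN proteins, works with IRF4 or IRF8, and is best known for its part in the differentiation of T cells and in class switching of B cells. Its linear expression was 33.5, 50.9, 23.6 and 27.0 in nLung and 194, 136 and 62.9 in KP(l). Every KP(l) array was above every nLung array, and the KP(l) arrays also differed widely among themselves, with replicate 1 highest and replicate 3 lowest. The means were 33.8 ± 12.2 (SD, n = 4 arrays) and 131 ± 65.9 (SD, n = 3 arrays). The log2 difference was 1.88, a 3.67-fold higher level in KP(l), with an interval of 1.79 to 7.54. Its unadjusted p was 0.00391, and after Benjamini-Hochberg adjustment over all probe sets limma gave 0.912, so Batf did not pass the threshold. The exact two-sided permutation test again gave 0.0286.

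The difference of Batf was 1.98 on the log2 scale in the first set of arrays and 1.32 in the second. Leaving out each array in turn moved it between 1.52, without KP(l) replicate 1, and 2.33, without KP(l) replicate 3, and the unadjusted p stayed under 0.05 in 15 of 15 alternative fits. KP(l) replicates 1 and 2, the arrays highest for Batf, had alveolar macrophage sums of 2460 and 1911, and KP(l) replicate 1 the neutrophil sum of 1547. nLung replicate 1, with an alveolar macrophage sum of 1607 and the highest epithelial sum, 866, had a Batf level of 33.5. In KP(l) replicate 3 the alveolar macrophage sum was 415, the neutrophil sum 50.3 and the T and NK cell sum 91.9, each within the nLung range. The B cell sum there, 41.81, was just above the highest nLung sum, 41.76. Batf in KP(l) replicate 3, at 62.9, was above the highest nLung array at 50.9. In a fit with the mean level of the macrophage markers as a covariate, added after seeing the data, the log2 difference of Batf was 1.51 (unadjusted p = 0.00461, adjusted p = 0.766 by limma). T and NK cell markers (8 of 8 measured) summed to 78.4 to 95.9 in nLung and 91.9 to 309 in KP(l), where Cd8b1, at 218, made up most of the sum of replicate 1. B cell markers (5 of 5) summed to 35.2 to 41.8 in nLung and 41.8 to 89.1 in KP(l), and monocyte markers (6 of 6) summed to 99.0 to 114 and 114 to 329. KP(l) replicate 1 was the highest for each. The part of these cells, of neutrophils and of alveolar macrophages in the difference of Batf was not tested.

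**Figure D2:**
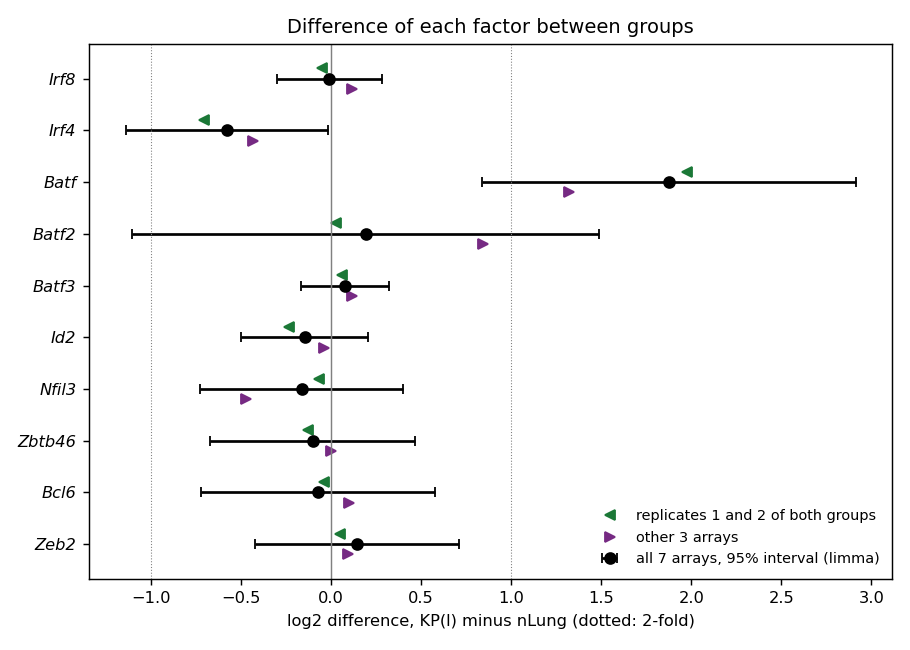
Log2 difference, KP(l) minus nLung, of each of the 10 factors from limma with its 95% confidence interval, and the values within the 2 sets of arrays as separate marks. The interval of Batf lies above 0, that of Irf4 just below 0, and the 8 others include 0.

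Batf lies on chromosome 12 at 85686720-85709087 of GRCm38.p6. Its promoter window and that of Irf4 are printed because these genes differed most, and neither held any of the 5 motifs searched, so no letters are in capitals. The AP-1 motif TGANTCA, which BATF with JUN can bind, was in a window of Zbtb46 and of Zeb2 and in 7.81% of all windows. The ZEB E-box CAGGTG was in a window of Irf8 and of Zbtb46 and in 20.2% of all windows, and the NFIL3 core TTANNTAA in 0 of the 14 windows and in 6.0% of all windows.
Batf promoter, chr12:85686470-85686769, plus strand: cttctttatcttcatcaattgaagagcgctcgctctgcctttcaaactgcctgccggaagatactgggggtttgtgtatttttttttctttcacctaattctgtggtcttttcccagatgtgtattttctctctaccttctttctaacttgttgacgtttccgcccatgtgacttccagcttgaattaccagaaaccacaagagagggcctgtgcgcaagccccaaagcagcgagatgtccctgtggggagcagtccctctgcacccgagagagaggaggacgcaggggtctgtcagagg
Irf4 promoter, chr13:30748983-30749282, plus strand: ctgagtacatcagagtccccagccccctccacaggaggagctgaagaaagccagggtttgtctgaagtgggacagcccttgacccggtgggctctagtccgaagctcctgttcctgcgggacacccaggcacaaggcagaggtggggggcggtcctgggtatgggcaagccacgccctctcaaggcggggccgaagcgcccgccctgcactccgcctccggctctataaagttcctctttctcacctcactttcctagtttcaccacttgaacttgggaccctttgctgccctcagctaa
The absence of a match says only that these letters are not in this window.

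Batf2, which interferon gamma induces in macrophages, overlapped between the groups. It read 20.1, 15.6, 49.2 and 15.1 in nLung and 17.0, 19.1 and 48.9 in KP(l) on the linear scale. The third replicate was the highest of either group, far above the rest. Its log2 difference was 0.19, with an interval of the fold of 0.465 to 2.81, the widest of the 10 in ratio of its ends. The 3 BATF genes thus gave log2 differences of 1.88 for Batf, 0.19 for Batf2 and 0.08 for Batf3, and whether these differ from one another was not tested.

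Likeness of pattern was measured as the root mean square difference between log2 values centred on the mean of the 7 arrays, against 70 other genes, for the 3 factors of widest range. Batf, with a log2 range of 3.05, was nearest to Fosl2, an AP-1 protein of the FOS group, at 0.544, and to Gbp3, an interferon-induced GTPase, at 0.583. On the linear scale Fosl2 read 190 in KP(l) replicate 1, 74.1 in replicate 2 and 44.5 in replicate 3, against 35.4 to 50.8 in nLung. Fosl2 had the order of the KP(l) arrays in common with Batf, but its replicate 3 was inside the nLung range. Batf2 was nearest to Spib, an ETS factor of plasmacytoid and B cells, at 0.439, and to Bcl6, at 0.443, both of which were also highest in the third replicate of either group. Irf4 was nearest to Ikzf1, the lymphoid factor Ikaros, at 0.198, and to Irf2, a relative of IRF1 that often represses, at 0.300. These values describe 7 arrays that share 2 groups and 2 sets, and say nothing of shared control.

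**Figure D3:**
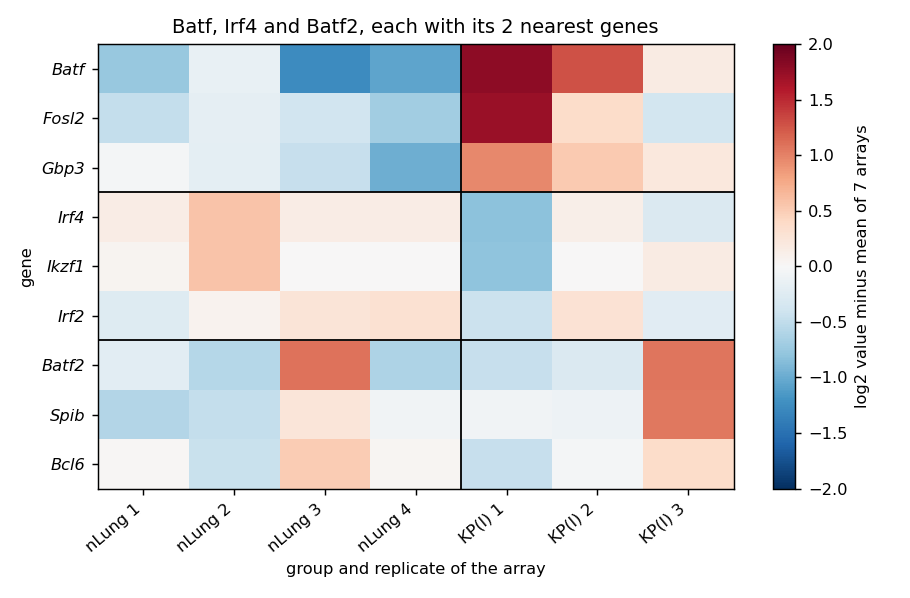
Log2 values centred on the mean of the 7 arrays for Batf, Batf2 and Irf4, each with the 2 genes of most similar pattern, by array. Batf and Fosl2 share their peak in KP(l) replicate 1, Batf2 and Bcl6 peak in the third replicate of both groups, and Irf4 and Ikzf1 are lowest in KP(l) replicate 1.

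The relatives of these factors were counted in the same way. Below an unadjusted p of 0.05 lay 2 of the 7 other IRF genes, both higher in KP(l), and 0 were called. Irf1, which interferon gamma induces, averaged 40.4 ± 3.55 in nLung (SD, n = 4) and 53.3 ± 10.4 in KP(l) (SD, n = 3), where replicate 1, at 42.0, overlapped the nLung arrays. Irf7, a mediator of type I interferon production, had a log2 difference of 1.34, or 1.64 and 1.33 within the sets of arrays. Of the 11 AP-1 partners, the JUN, FOS, ATF and MAF proteins with which BATF proteins can pair or compete, 0 were higher and 1 was lower. That was Fosb, an early response gene, which averaged 477 ± 171 in nLung (SD, n = 4) and 233 ± 62.9 in KP(l) (SD, n = 3) for a log2 difference of -1.0 (SE 0.32, adjusted p = 0.912 by limma). The median of this list was -0.03.

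Among the 6 E proteins and ID proteins other than Id2, 0 were higher and 1 was lower. Tcf4, the E protein that ID2 holds in check and that drives plasmacytoid dendritic cells, read 89.6, 108, 142 and 98.1 in nLung and 63.6, 82.6 and 55.5 in KP(l). No KP(l) array reached the lowest nLung array. Its log2 difference was -0.70 (SE 0.20, adjusted p = 0.912 by limma), and -0.44 and -1.09 within the sets of arrays. Among 7 plasmacytoid markers, Ly6d was higher (log2 difference 0.88) and Siglech lower (-0.57) below an unadjusted p of 0.05.

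Of 24 other factors of myeloid and dendritic cells, 1 was higher and 0 were lower, with a median of -0.01. Zfp366, which encodes the dendritic cell factor DC-SCRIPT, read 96.3, 65.5, 96.8 and 40.6 in nLung and 146, 124 and 134 in KP(l). All KP(l) arrays exceeded all nLung arrays, nLung varied more, and the log2 difference was 0.93 (SE 0.32, adjusted p = 0.912 by limma). Of 14 genes induced by interferon gamma, a list that counts Irf1 a second time, 7 had an unadjusted p under 0.05, all of them higher in KP(l). At that p 2.62% of all probe sets were higher. In this list 0 were called, and the median was 0.69. The list was chosen with earlier results of these data known, so the count is no independent evidence. Cxcl9 had the largest difference of the 7, at 2.48 on the log2 scale (adjusted p = 0.912 by limma). It read 416, 607 and 793 in the KP(l) arrays against 31.7 to 200 in nLung. Socs1, a brake on cytokine signaling, and Gbp3 were also among the 7. Gbp3 read 26.0, 19.1 and 15.4 in the KP(l) arrays against 6.78 to 12.9 in nLung.

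**Figure D4:**
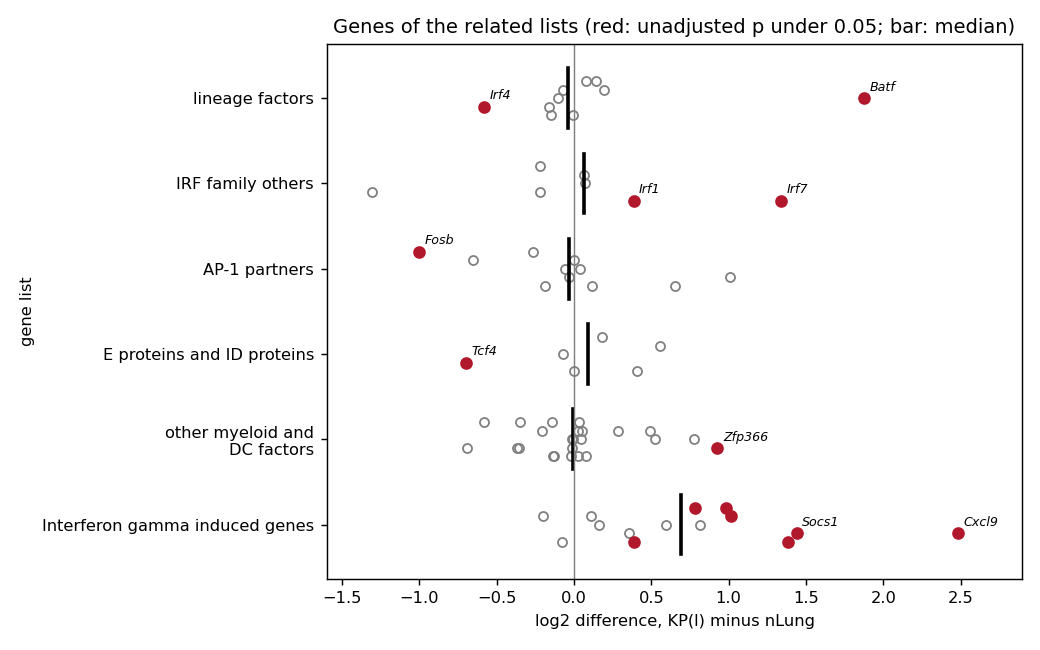
Log2 difference, KP(l) minus nLung, of every measured gene in the lists of related factors, 1 row per list, with red points for an unadjusted p under 0.05 from limma and a bar at the median. The medians of the lineage factors, the other IRF genes, the AP-1 partners and the other myeloid factors lie between -0.04 and 0.06, and that of the genes induced by interferon gamma lies at 0.69.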

How the data were processed

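The authors deposited log2 values made by RMA (background correction, quantile normalization and median polish) in the affy package under R 3.4.2 and Bioconductor 3.5, with the BrainArray 22.0.0 definition of 1 probe set per Entrez gene. RMA pulls array distributions together, and its median polish can give several arrays 1 value. For amplification the labels name a NuGEN protocol and the paper the 3'IVT protocol.

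The factors and lists were chosen with earlier results of these data known. Of 25428 probe sets, 24705 had 1 symbol, 0 several and 723 none. No probe set was left out. The groups were compared by limma 3.58.1 under R 4.3.3, with p adjusted over all probe sets by Benjamini-Hochberg. The script was tested on simulated data. SAM was rewritten with all 35 label orders. The rule for naming genes took all 10 factors, up to 2 genes with the largest difference at an unadjusted p under 0.05 from each list, and the 2 nearest patterns of 3 factors. Of the genes that this rule took from the marker lists, Ccl22, Ear2, Plac8, Cd79b, Epcam and Cdh1 are not described. Clec9a and several other markers were given outside the rule. The Gbp3 levels were added after their values were seen. Promoter windows and coordinates are those of RefSeq, GRCm38.p6, and motifs were searched on both strands. Alternatives were an intensity trend, array weights, another quantile normalization, median centring, a filter on low values, each array left out, 2 blocks, other folds, SAM and, added after seeing the data, a macrophage covariate. An order of levels between genes is not given, because probe brightness differs, and the planned protein comparison was not run. Python 3.11.15 and matplotlib 3.10.9 served for sequences and figures.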

Additional observations from a re-analysis of the deposited data

Results flagged for a closer look

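In 3 of the 10 factors 1 nLung array lay far from the other 3, by a gap that took up more than 0.829 of the range of the 4 arrays. For 4 values drawn from a normal distribution this happens in about 1 in 20 groups. That rate need not hold here, because RMA can bring several arrays to 1 value or close to it. The share of all probe sets flagged in this way was not computed. Irf8 was at 1322 in nLung replicate 2, below the others, with a gap of 0.879 of the range. Irf4 was at 34.0 in nLung replicate 2, above the others at 25.4, with a gap of 0.996. Id2 was at 1596 in nLung replicate 1, above the others, with a gap of 0.8293. Groups of 3 arrays were not examined in this way.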

How the results depend on the processing

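Under every alternative that was run, 0 factors were called in limma or SAM. The count of factors at an unadjusted p under 0.05 was 2, and was 1 with array weights, with a block for the 2 sets and with the macrophage covariate. It ran from 1 to 2 when each array was left out, with 2 only without KP(l) replicate 2, and Batf was the factor that passed each time. The count of factors without overlap, 2, was 1 after quantile normalization once more and ran from 2 to 3 when each array was left out. Some small differences changed sign. Leaving out each array gave a range of -0.10 to 0.11 for Irf8, -0.28 to 0.13 for Bcl6, -0.27 to 0.049 for Zbtb46, -0.019 to 0.30 for Zeb2, -0.29 to 0.58 for Batf2 and -0.32 to 0.051 for Nfil3. Irf8 was also above 0 after quantile normalization (0.019), with a block for the sets (0.0168), with the covariate (0.0331) and within the second set (0.12), as was Bcl6 with a block for the sets (0.0164), with the covariate (0.12) and within the second set (0.10), while Zeb2 fell below 0 with the covariate (-0.0637). The cause was not tested. Of 224 list medians under the alternatives, 201 moved by less than the spread between arrays.

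The labels do not say whether the replicate numbers pair the arrays. Deviations of same-numbered arrays from their group means correlated at 0.0784, 0.0234 and 0.194. The last was the highest for any KP(l) array with any nLung array. KP(l) replicates 1 and 2 correlated more with another nLung array, at 0.0902 and 0.0410. Such correlations cannot decide whether same-numbered arrays were handled together. With the replicate block, which uses 3 arrays per group, Batf was at 1.79 (adjusted p = 0.897 by limma), Irf4 at -0.61 and Irf8 at 0.0061, and 0 factors were called.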
